A study of Mus musculus with 104 samples.

Results

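The neural crest is a population of cells that arises at the border of the neural plate, leaves the closing neural tube and forms much of the mesenchyme of the face together with pigment cells, glia and peripheral neurons. Cranial mesenchyme of the early head comes from this crest and from paraxial mesoderm. A small set of transcription factors first makes border cells competent, then specifies the crest, and then directs migrating cells to glial or mesenchymal fates. The 10 genes described here are Sox10, Tfap2a, Tfap2b, Foxd3, Ets1, Dlx2, Dlx5, Twist1, Prrx1 and Sox9, chosen by symbol. All 10 were found under these symbols in the RNA table of the Kmt2b set, which has 22592 rows, and in that of the Tet1/2 set, which has 22593 rows.

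The embryos were mice from DBA2 males mated to C57BL/6N females, taken as epiblasts on embryonic day 6.5 (E6.5) or as heads on E8.5 and E9.5. Kmt2b-/- embryos (Kmt2b KO) lack a methyltransferase of histone H3 lysine 4, and Tet1-/-;Tet2-/- embryos (Tet1/2 DKO) lack enzymes that oxidize 5-methylcytosine. In the Kmt2b set the E6.5 epiblast was represented by 3 KO and 3 WT samples, the E8.5 head by 2 KO and 3 WT samples, and the E9.5 head by 1 KO and 3 WT samples. The Tet1/2 set held 2 DKO E6.5 epiblasts, 2 DKO E8.5 heads and 2 WT E8.5 heads, and its table also carries 3 columns of WT E6.5 epiblasts, assigned here by name to the WT epiblast samples listed with Kmt2b. The labels give no allele design, no Cre and no sex, and do not say whether samples were separate embryos or pools, so the spread behind each p-value is that among these libraries and may be technical.

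RNA levels are the authors' FPKM, which give a level per transcript length, and their read depth is unknown. The Kmt2b set has 1 merged column per group, so its values have no error and no test there. Differences are of log2(FPKM + 1), which understates the change of genes at low levels, and a gene is counted as higher or lower in that set at a difference of at least 2-fold on this scale. These are bulk tissues, in which fewer crest cells and less RNA per cell cannot be told apart. Kmt2b, listed as Wbp7, had 0.308, 0.133 and 0.0349 FPKM in KO at E6.5, E8.5 and E9.5, against 0.701, 0.600 and 1.20 FPKM in WT. Tet1 had 1.28 and 1.29 FPKM in the DKO heads, against 2.55 and 3.33 FPKM in the WT heads (log2 difference −0.78, limma adjusted p = 0.157). It had 3.82 and 2.92 FPKM in the DKO epiblasts, against 4.77, 6.29 and 5.02 FPKM in the WT epiblasts (−0.54, limma adjusted p = 0.0485), so Tet1 RNA was still listed in every DKO library. Tet2 was under 0.5 FPKM in all 9 libraries. The column of the E9.5 KO sample carries the tissue code Em, which the labels do not explain, where its title says head. It is called here the KO sample labelled head, and whether it holds tissue beyond the head cannot be told from the labels. Its 8 heart muscle markers summed to 2413 FPKM, against 20.9 FPKM in WT E9.5 heads.

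Of the promoters of the 10 genes, 7 windows of 6 genes (Tfap2a with 2 starts, Tfap2b, Foxd3, Dlx2, Twist1 and Prrx1) were matched in the RefSeq table of build GRCm38.p6. Printed here are the 250 bases before the start of the 4 genes whose RNA was at least 2-fold higher in WT E9.5 than in WT E8.5 heads, since CpG methylation was read at these places and since Kmt2b belongs to a family of methyltransferases that act at CpG-rich promoters. Capitals mark CpGs, and for Tfap2a the farther upstream of its 2 listed starts is shown.
Tfap2a, chr13:40734921-40735170, minus strand: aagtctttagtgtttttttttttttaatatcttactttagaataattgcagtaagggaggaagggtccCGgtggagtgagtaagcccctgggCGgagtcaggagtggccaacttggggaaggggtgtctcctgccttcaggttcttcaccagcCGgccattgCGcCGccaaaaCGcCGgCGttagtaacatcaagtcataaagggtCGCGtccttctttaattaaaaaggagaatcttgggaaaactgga
Tfap2b, chr1:19211804-19212053, plus strand: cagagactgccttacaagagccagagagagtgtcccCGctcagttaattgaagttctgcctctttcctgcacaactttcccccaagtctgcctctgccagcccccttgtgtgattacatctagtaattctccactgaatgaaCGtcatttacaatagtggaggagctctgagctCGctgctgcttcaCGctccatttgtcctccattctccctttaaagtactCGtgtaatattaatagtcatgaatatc
Twist1, chr12:33957421-33957670, plus strand: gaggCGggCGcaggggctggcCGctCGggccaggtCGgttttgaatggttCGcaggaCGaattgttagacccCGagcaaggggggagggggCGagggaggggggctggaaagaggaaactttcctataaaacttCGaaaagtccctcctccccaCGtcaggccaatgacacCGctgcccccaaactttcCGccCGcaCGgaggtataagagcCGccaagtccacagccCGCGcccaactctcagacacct
Prrx1, chr1:163313651-163313900, minus strand: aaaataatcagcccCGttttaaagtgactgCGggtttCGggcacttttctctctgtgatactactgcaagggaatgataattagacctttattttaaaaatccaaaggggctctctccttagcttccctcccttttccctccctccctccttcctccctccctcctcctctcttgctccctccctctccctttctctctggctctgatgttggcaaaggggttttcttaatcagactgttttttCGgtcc
The 4 windows differ in CpG content. Twist1 has 18 CpGs in 250 bases and Tfap2a has 10, while Tfap2b has 5 and Prrx1 has 4, against a median of 6 over all 32841 windows of the table. The other start of Tfap2a has 10, Foxd3 has 21 and Dlx2 has 24. The ratio of observed to expected CpGs, which corrects for base composition, was 0.740 for Twist1, 0.729 for Tfap2a, 0.391 for Tfap2b and 0.321 for Prrx1, with a median of 0.374 over all windows.

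Short motifs were sought on both strands of these 250 bases. The E-box CANNTG, the kind of site bound by bHLH factors such as Twist1, was in 3 of the 7 windows, where 66.2% of all windows hold it. It was found 1 time in the Tfap2b window, 58 bases before the start, 1 time in that of Foxd3 and 2 times in that of Dlx2. The Twist1 window holds TATAAA 126 bases and CCAAT 89 bases before its start, which 12.4% and 33.9% of all windows hold. Dlx2 also holds CCAAT, and the other 5 windows hold neither. The AP-2 sequence GCCNNNGGC (in 13.7% of all windows) and the SOX sequence ACAAAG (16.5%) were in 0 of the 7 windows. Matches of different motifs did not overlap.

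In normal development 9 of the 10 genes were called higher in WT E8.5 heads than in WT E6.5 epiblasts by limma, with an adjusted p under 0.05 over 11264 genes. In that comparison 19.9% of all genes were called higher and 17.1% lower. Apart from Sox9 and Foxd3, 8 of the 10 reach the filter on low values through head libraries alone, so the count is a description. The largest differences were those of Dlx5, a homeobox gene of the outer rim of the neural plate, the ectodermal placodes and the pharyngeal arches, and of Sox9, a SoxE factor of the premigratory crest and later of cartilage. Dlx5 had 17.8 and 16.7 FPKM in the heads, against 0.284, 0 and 0.256 FPKM in the epiblasts (log2 difference 3.96, SE 0.30, adjusted p = 5.21e-05). Sox9 had 13.7 and 29.1 FPKM in the heads, against 0.709, 0.493 and 0.572 FPKM in the epiblasts (3.73, SE 0.28, adjusted p = 5.10e-05). For both genes every head lay above every epiblast.

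The genes of the specified and migrating crest followed at lower levels. Tfap2b, an AP-2 factor of the crest and the surface ectoderm, had 4.14 and 2.31 FPKM in WT heads and at most 0.0240 FPKM in WT epiblasts (2.03, SE 0.20). Sox10, the SoxE factor of migrating crest and its glial and pigment descendants, had 3.27 and 2.96 FPKM in WT heads, against 0.137, 0.140 and 0.121 FPKM in WT epiblasts (1.86, SE 0.14). Ets1, an ETS factor of cranial crest that endothelium also uses, had 5.19 and 3.63 FPKM in WT heads, against 0.962, 0.440 and 0.710 FPKM (1.66, SE 0.21). None of these 3 genes overlapped between the stages, and every head lay above every epiblast in 9 of the 10, where 32.9% of all genes did so and 31% had every head below.

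Prrx1 and Twist1, a homeobox and a bHLH factor of head mesenchyme, and Tfap2a, the other AP-2 factor, lay between 1.08 and 2.10 FPKM in WT E8.5 heads and were at most 0.216 FPKM in WT epiblasts, with log2 differences of 1.31, 1.26 and 1.19. Dlx2, which patterns the pharyngeal arches, passes the filter through the DKO heads alone, so its p is given as a description. It had 0.877 and 0.414 FPKM in the WT heads and was listed at 0 in all 3 epiblasts (0.70, limma adjusted p = 0.0136). Foxd3 was the exception. It encodes a forkhead factor that is used in the epiblast and again in the premigratory crest, and it had 0.319 and 1.45 FPKM in WT heads, against 1.43, 1.38 and 2.29 FPKM in WT epiblasts (−0.57, SE 0.28, limma adjusted p = 0.150). The heads overlapped the epiblasts for this gene.

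The order of levels in WT E8.5 heads placed Sox9 (19.3 FPKM in the merged column of the Kmt2b set) and Dlx5 (16.3) far above Ets1 (4.85), Sox10 (3.23) and Tfap2b (2.86), and these above Prrx1 (1.75), Tfap2a (1.52), Twist1 (1.14), Dlx2 (0.958) and Foxd3 (0.592). In the 2 WT heads of the Tet1/2 table the values of Sox9 overlapped those of Dlx5, those of Tfap2b overlapped both Ets1 and Sox10, those of Prrx1, Tfap2a and Twist1 overlapped each other, and those of Foxd3 overlapped Dlx2. These neighbours did not differ beyond the spread between the 2 libraries, whereas Ets1 (5.19 and 3.63 FPKM) lay above Sox10 (3.27 and 2.96 FPKM) in both.

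From E8.5 to E9.5 the mesenchymal genes and the AP-2 genes were higher in the WT head. Prrx1 had 11.0 FPKM in WT heads at E9.5, against 1.75 FPKM at E8.5 (log2 difference 2.13), and Twist1 had 8.31 FPKM, against 1.14 FPKM (2.12). Tfap2a had 6.15 FPKM at E9.5, against 1.52 FPKM (1.50), and Tfap2b 8.44 FPKM, against 2.86 FPKM (1.29). These 4 of 10 members were at least 2-fold higher, where 8.76% of 11073 genes were, and 0 were at least 2-fold lower, where 10.3% of genes were. Dlx2 had 2.20 FPKM at E9.5, against 0.958 FPKM (0.71).

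Sox10 and Dlx5 lay on the other side, with 1.42 FPKM at E9.5 against 3.23 FPKM at E8.5 for Sox10 (−0.81) and 7.90 FPKM against 16.3 FPKM for Dlx5 (−0.96). Ets1 (4.73 and 4.85 FPKM at E9.5 and E8.5), Sox9 (14.3 and 19.3) and Foxd3 (0.410 and 0.592) differed by less than 2-fold. The E9.5 columns were not normalized with the E6.5 and E8.5 columns, as their sorted values show. Later crest genes outside the 10 were also at least 2-fold higher in WT E9.5 heads, among them Ednrb, the endothelin receptor of melanocyte and enteric precursors, with 9.96 FPKM at E9.5 against 1.60 FPKM at E8.5. Of the 8 measured genes of migratory crest and its first derivatives, 3 were higher and 0 lower. Of the 16 of pharyngeal arch and cranial mesenchyme, 3 were higher, among them the forkhead gene Foxc1 with 8.67 FPKM against 0.977 FPKM, and 3 were lower.

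**Figure D1:**
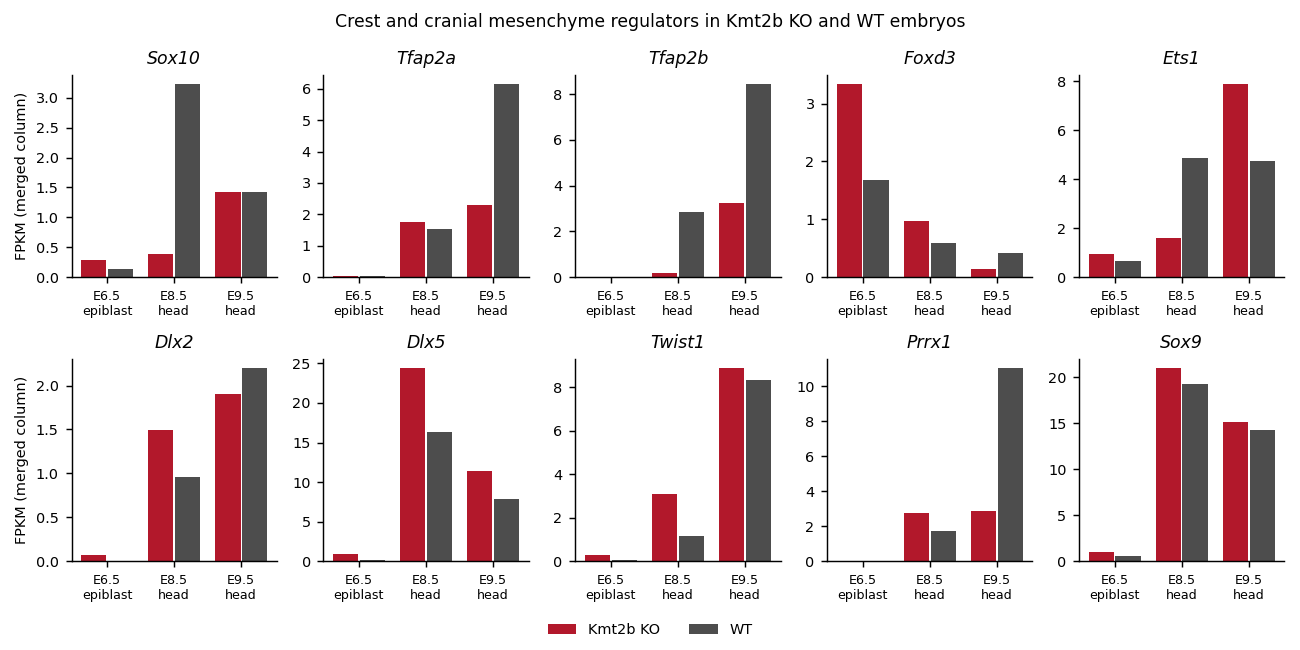
FPKM of the 10 genes in the merged Kmt2b KO (red) and WT (grey) columns at 3 stages, each panel with its own axis from 0. Sox10, Tfap2b and Ets1 are lower in KO at E8.5, and Tfap2a, Tfap2b and Prrx1 at E9.5, while Twist1 reaches 8.87 FPKM in the E9.5 KO column beside 8.31 in WT.

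In Kmt2b KO E8.5 heads 3 crest factors were lower and the mesenchymal factors were not. Sox10 had 0.389 FPKM in KO heads, against 3.23 FPKM in WT heads (log2 difference −1.61). Tfap2b had 0.200 FPKM in KO heads, against 2.86 FPKM in WT heads (−1.69), and Ets1 had 1.59 FPKM, against 4.85 FPKM (−1.18). These 3 of the 10 were at least 2-fold lower, where 2.51% of 11073 genes were, and 0 were at least 2-fold higher, where 2.21% were.

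With a pseudocount of 5 in place of 1, which shrinks differences at such low levels, 0 of the 10 were at least 2-fold lower.

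The other 7 genes had positive differences under 2-fold. Twist1 had 3.07 FPKM in KO heads, against 1.14 FPKM in WT heads (0.93), which is just short of 2-fold on this scale. Dlx5 had 24.4 FPKM, against 16.3 FPKM (0.55), Prrx1 2.74, against 1.75 FPKM (0.45), and Dlx2 1.49, against 0.958 FPKM (0.35). Foxd3 had 0.963 FPKM in KO heads, against 0.592 FPKM in WT heads (0.30), Tfap2a 1.76, against 1.52 FPKM (0.13), and Sox9 21.0, against 19.3 FPKM (0.11). The paralogs Tfap2a and Tfap2b lay on different sides of 0.

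The 2 WT E8.5 heads of the Tet1/2 table give an idea of spread, although that table was normalized separately. Sox10 had 3.27 and 2.96 FPKM there, Tfap2b 4.14 and 2.31 FPKM and Ets1 5.19 and 3.63 FPKM, so the KO column was below the 3 WT values of each gene. With the mean of these heads as the control the same 3 genes were at least 2-fold lower, with log2 differences of −1.57, −1.82 and −1.06. Twist1 had 1.60 and 1.51 FPKM in them and Dlx5 17.8 and 16.7 FPKM, below the KO columns. The KO column of Sox9 lay between its WT heads there (13.7 and 29.1 FPKM), and that of Tfap2a beside the higher of them (1.08 and 1.75 FPKM).

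**Figure D2:**
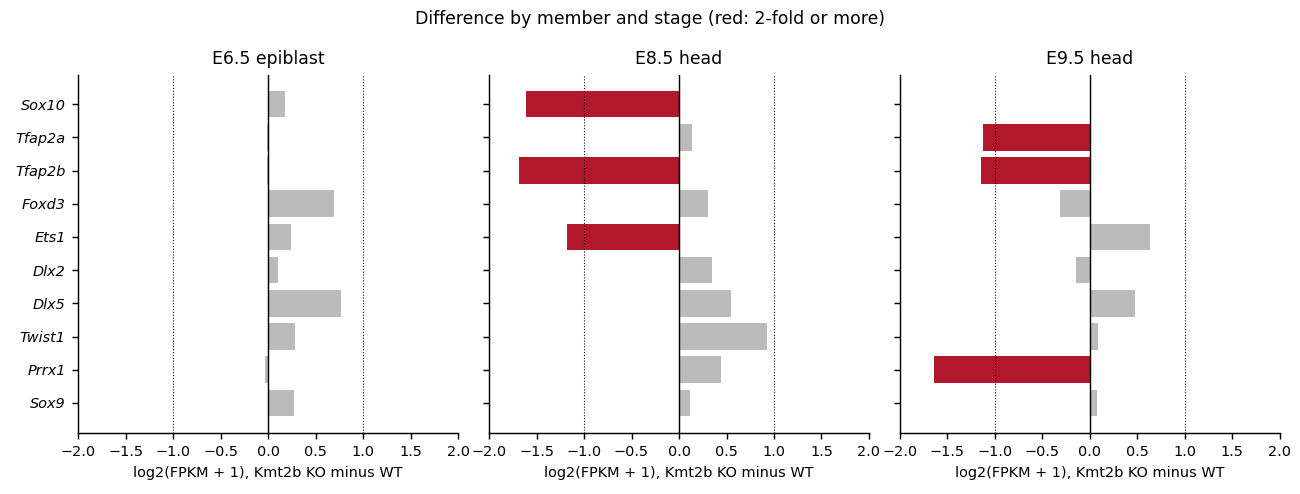
Kmt2b KO minus WT difference of log2(FPKM + 1) for each gene (rows) in the E6.5 epiblast, the E8.5 head and the samples labelled E9.5 head. Red bars are at least 2-fold (dotted lines at −1 and 1): 0, 3 and 3 of 10 genes are lower, and 0 are higher at each stage.

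Other genes of the pathway in KO E8.5 heads gave mixed values. Of 13 measured genes of crest specification and delamination, 2 were at least 2-fold lower and 0 higher. These were Rhob, a small GTPase of delaminating crest, with 1.56 FPKM in KO heads against 4.91 FPKM in WT heads, and the nuclear receptor gene Nr2f2, with 1.91 FPKM against 5.83 FPKM (−1.23). Snai2, a repressor that drives delamination, had 6.60 FPKM in KO heads, against 4.58 FPKM. The border gene Pax3 had 6.23 FPKM in KO heads, against 6.95 FPKM in WT heads.

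Among 8 measured genes of migratory crest and its first derivatives, 1 was at least 2-fold higher, the retinoid receptor gene Rxrg with 10.8 FPKM in KO heads against 3.10 FPKM in WT heads (1.52), and 0 were lower. Of 16 measured genes of pharyngeal arch and cranial mesenchyme, 14 lay above 0 with a median of 0.51, where the median of all genes was −0.01. Tbx1, a T-box gene of arch mesoderm and endoderm, was past 2-fold with 7.60 FPKM in KO heads against 2.45 FPKM in WT heads (1.32), and Prrx2, the paralog of Prrx1, had 6.91 FPKM, against 3.46 FPKM (0.83).

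Markers of other cells also differed between these heads. The 13 endothelial markers summed to 24.5 FPKM in KO heads and 35.3 FPKM in WT heads, with 5 of 13 at 1 FPKM or more in each. Egfl7 made up 15.2 and 24.0 FPKM of these sums, and it had 21.0 FPKM in WT E6.5 epiblasts too. Of 5 measured endothelial markers 2 lay above 0 and 3 below, and 0 were at least 2-fold higher or lower. Ets1 is itself expressed in endothelium. The 11 surface ectoderm markers summed to 484 FPKM in KO heads and 294 FPKM in WT heads, with 3 at least 2-fold higher (Cdh1, Epcam and Cldn6). These 3 had 55.2, 239 and 240 FPKM in WT E6.5 epiblasts, so they do not mark surface ectoderm alone. Of the 11 markers 8 lay above 0 and 3 below. Those below were Grhl3 (1.74 FPKM in KO heads, against 4.11 FPKM in WT heads), Perp (0.890, against 1.95 FPKM) and Trp63 (0.130, against 0.333 FPKM). Of 11 neural tube markers 4 were at least 2-fold lower (Pax6, Hes5, Lhx2 and Pou3f2) and 1 higher (Egr2), and their sum was 91.7 FPKM in KO heads and 143 FPKM in WT heads. Of 8 epiblast markers 4 were at least 2-fold higher (Pou5f1, Nanog, Utf1 and Fgf5), with a sum of 194 FPKM in KO heads and 151 FPKM in WT heads. In these lists 0 markers were listed at 0 in either column. The part of these cells in the values of the 10 genes was not tested.

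At E9.5 another set of genes was lower in the KO sample labelled head. Prrx1 had 2.85 FPKM in the KO sample labelled head, against 11.0 FPKM in WT heads (log2 difference −1.64). Tfap2b had 3.26 FPKM, against 8.44 FPKM (−1.15), and Tfap2a 2.28 FPKM, against 6.15 FPKM (−1.12). These 3 of 10 were at least 2-fold lower, where 3.57% of genes were, and 0 were at least 2-fold higher, where 4.69% were. Twist1, the other gene of the 10 that was at least 2-fold higher in WT E9.5 than in WT E8.5 heads, had 8.87 FPKM in the KO sample labelled head and 8.31 FPKM in WT heads (0.08). This comparison and that of the WT stages share the WT E9.5 column. With a pseudocount of 5 in place of 1, 1 of the 10 genes was at least 2-fold lower.

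Among the samples labelled KO head, Prrx1 had 2.85 FPKM at E9.5, against 2.74 FPKM at E8.5, and Tfap2a had 2.28 FPKM at E9.5, against 1.76 FPKM at E8.5. Tfap2b, in contrast, had 3.26 FPKM at E9.5, against 0.200 FPKM at E8.5. Sox10 had 1.43 FPKM in the E9.5 KO sample labelled head, against 1.42 FPKM in WT heads (0.01), and Ets1 7.87 FPKM, against 4.73 FPKM (0.63), so neither was lower there. Dlx5 had 11.4 FPKM, against 7.90 FPKM (0.47), Sox9 15.1, against 14.3 FPKM (0.07), Dlx2 1.90, against 2.20 FPKM (−0.14), and Foxd3 0.133, against 0.410 FPKM (−0.32).

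With 1 KO sample at E9.5 there is no check on these values. All 6 measured heart muscle genes lay above 0 in the KO column, 5 of them by at least 2-fold, and 7 of 8 heart markers were at 1 FPKM or more there, while 2 of 8 were in WT heads and Nkx2-5 and Myh6 were listed at 0. Hand1, a bHLH gene of heart and ventral arch mesenchyme, had 13.7 FPKM in the KO sample labelled head, against 0.0874 FPKM in WT heads. The surface ectoderm markers, a tissue that also uses Tfap2a and Tfap2b, summed to 304 FPKM in the KO sample labelled head and 310 FPKM in WT heads, but 3 of 11 were at least 2-fold lower (Trp63, Epcam and Perp) and 0 higher. Of 5 measured endothelial markers, 2 were at least 2-fold lower and 0 higher. They were Emcn, with 2.48 FPKM in the KO sample against 8.17 FPKM in WT heads, and Fli1, with 2.29 FPKM against 7.60 FPKM. The 13 endothelial markers summed to 25.4 FPKM in the KO sample and 29.7 FPKM in WT heads, where Tie1 was listed at 0 in KO and Erg in WT. Egfl7 made up 15.7 and 8.94 FPKM of these sums. Of 11 neural tube markers 2 were at least 2-fold lower (Sox2 and Pou3f2) and 1 higher (Egr2), and their sum was 111 FPKM in the KO sample and 132 FPKM in WT heads. Foxc1 had 1.67 FPKM in the KO sample labelled head, against 8.67 FPKM in WT heads (−1.86). The nuclear receptor gene Nr2f1 had 21.3 FPKM, against 62.2 FPKM (−1.50), and Snai1 10.2 FPKM, against 4.21 FPKM (1.10). The part of heart tissue and of these other cells in the values of the 10 genes was not tested.

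In the Kmt2b KO E6.5 epiblast 0 of 10 genes were at least 2-fold lower or higher, where 0.614% and 1.08% of genes were. Foxd3 had 3.33 FPKM in KO epiblasts, against 1.69 FPKM in WT epiblasts (log2 difference 0.69), and the individual WT libraries had 1.43, 1.38 and 2.29 FPKM. Dlx5 had 0.930 FPKM in KO epiblasts, against 0.139 FPKM (0.76), with WT libraries at 0.284, 0 and 0.256 FPKM. The other 8 genes were under 1 FPKM in both columns. They passed the filter on low values, 1 FPKM or more in at least 2 of the 6 columns, through the head columns.

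In the Tet1/2 DKO E8.5 head 0 of 10 genes were called by limma, where 0.258% of 10866 genes were called higher and 0.175% lower. Of the 9 members that pass the filter on low values without the DKO heads, 2 were at an unadjusted p under 0.05, where 16.8% of all genes were. Sox10 had 5.68 and 5.59 FPKM in DKO heads, against 3.27 and 2.96 FPKM in WT heads (log2 difference 0.69, SE 0.15, limma adjusted p = 0.132). Ets1 had 12.1 and 9.57 FPKM in DKO heads, against 5.19 and 3.63 FPKM in WT heads (1.14, SE 0.22, limma adjusted p = 0.109). Dlx2 had 1.99 and 1.57 FPKM in DKO heads, against 0.877 and 0.414 FPKM in WT heads (0.77, SE 0.19, limma adjusted p = 0.165), but it passed the filter through the DKO heads alone, the group where it is higher, so its p is given as a description. In each of these 3 genes both DKO heads lay above both WT heads, and none passes the threshold after adjustment. Of all genes 28.4% had both DKO heads above both WT heads, and 32% had both below.

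Tfap2b had 5.22 and 4.84 FPKM in DKO heads, against 4.14 and 2.31 FPKM in WT heads (0.55, SE 0.24, limma adjusted p = 0.322), and is the other member of the 4 of 10 whose DKO heads both lay above the WT heads. Sox9 had 10.4 and 14.0 FPKM in DKO heads, against 13.7 and 29.1 FPKM in WT heads (−0.69, SE 0.35, limma adjusted p = 0.384), and its groups overlapped. For Tfap2a, Foxd3, Twist1, Prrx1 and Dlx5 the log2 differences lay between −0.11 and 0.15 with SEs of 0.21 to 0.36, and the DKO heads overlapped the WT heads. Over all 10 genes 5 lay above 0 and 5 below.

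**Figure D3:**
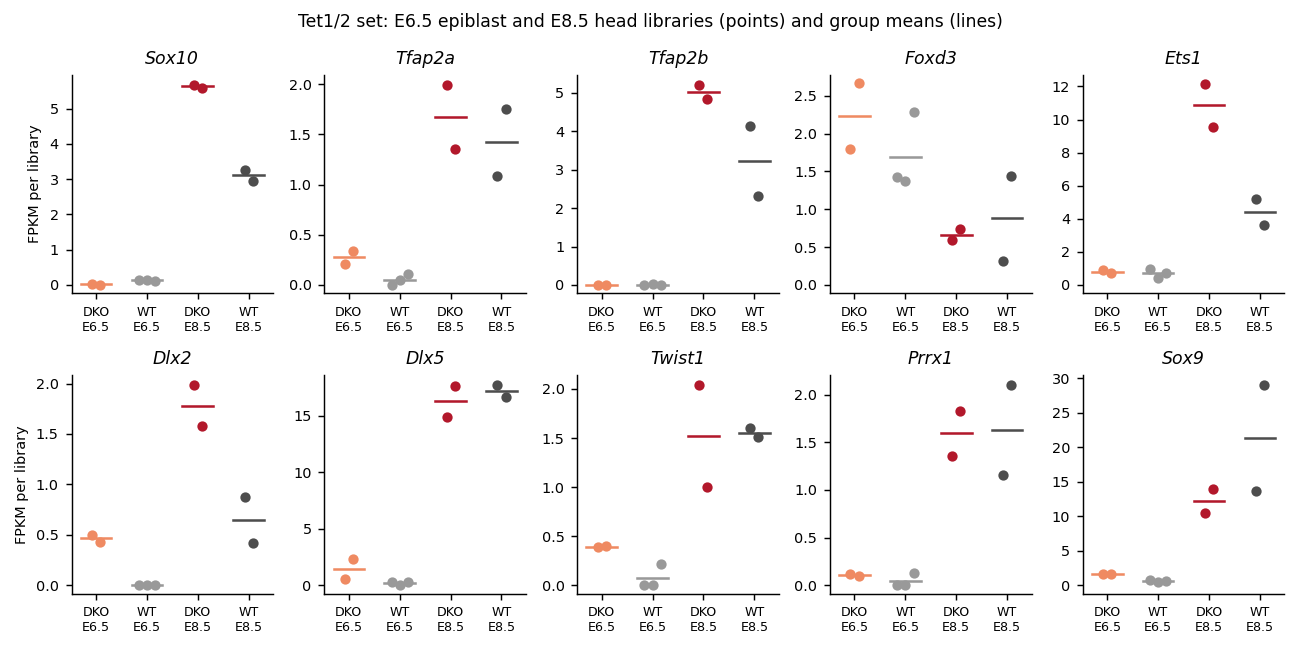
FPKM per library (points) and group means (lines) of the 10 genes in Tet1/2 DKO (orange, red) and WT (grey) E6.5 epiblasts and E8.5 heads, each panel with its own axis. In heads, Sox10, Tfap2b, Ets1 and Dlx2 have both DKO points above both WT points, and the WT Sox9 points lie at 13.7 and 29.1 FPKM.

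The values beside these heads differed too. The 13 endothelial markers summed to 41.7 and 24.0 FPKM in DKO heads and to 32.5 and 39.7 FPKM in WT heads. Egfl7 made up 25.2 and 19.9 FPKM of these sums in DKO heads and 23.7 and 31.9 FPKM in WT heads. It had 19.9 to 24.0 FPKM in WT epiblasts too, so it does not mark endothelium alone. In the DKO head with 24.0 FPKM only 2 of 13 were at 1 FPKM or more, Cdh5 and Tie1 were listed at 0, and Ets1 had 9.57 FPKM, above both WT heads. The 8 heart muscle markers summed to 8.35 and 5.06 FPKM in DKO heads and to 29.7 and 189 FPKM in WT heads. The WT head with 189 FPKM is the one with 29.1 FPKM of Sox9, and the part of this in the Sox9 values was not tested. Of the other pathway lists, 0 of 9 border, 0 of 13 specification, 0 of 7 migratory crest and 0 of 15 arch and mesenchyme genes were called. Cdh6, a cadherin of premigratory crest, came nearest with 15.8 and 11.5 FPKM in DKO heads, against 2.94 and 4.13 FPKM in WT heads (1.69, SE 0.22, limma adjusted p = 0.0568).

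In the Tet1/2 DKO E6.5 epiblast 2 of 10 members were called higher, near the share of all genes, since 20.1% of 11264 genes were called higher. Of the members 0 were called lower, where 15.2% of genes were. The 2 members were Dlx2 and Dlx5. Dlx2 was under 1 FPKM in every epiblast and passes the filter on low values through the DKO heads alone, so its p is given as a description. Dlx2 had 0.502 and 0.425 FPKM in DKO epiblasts and was listed at 0 in all 3 WT epiblasts (log2 difference 0.55, SE 0.17, limma adjusted p = 0.0384). Dlx5 had 0.531 and 2.32 FPKM in DKO epiblasts, against 0.284, 0 and 0.256 FPKM in WT epiblasts (0.94, SE 0.30, limma adjusted p = 0.0403). Dlx5 reaches the filter on low values only with head libraries, so its p is also a description. In both genes the DKO libraries lay above the WT libraries. Without any 1 epiblast library the adjusted p of Dlx2 was 0.0673 to 0.118, so its call was lost each time, and that of Dlx5 passed only without DKO epiblast 1 (0.00106). DKO epiblast 2, with 2.32 FPKM of Dlx5, also stood apart in surface ectoderm markers, which the epiblast shares in part. Their sum was 639 FPKM in DKO epiblast 1 and 280 FPKM in DKO epiblast 2, against 598 to 632 FPKM in WT epiblasts. Cdh1, the epithelial cadherin gene, had 81.6 and 7.04 FPKM in DKO epiblasts 1 and 2, against 65.5, 57.4 and 49.5 FPKM in WT epiblasts, and the tight junction gene Cldn6 had 192 and 28.4 FPKM, against 240, 245 and 227 FPKM. In each library 8 of the 11 were at 1 FPKM or more, and Trp63 was listed at 0. The 8 epiblast markers summed to 2628 and 2516 FPKM in DKO epiblasts, against 1564 to 1614 FPKM in WT epiblasts. Dnmt3b made up 1196 FPKM of the sum in each DKO epiblast and 624 FPKM in each WT epiblast. Of the 8 markers 5 lay above 0 and 3 below. Among those below was Tdgf1, with 97.3 and 43.7 FPKM in DKO epiblasts, against 213, 177 and 188 FPKM in WT epiblasts. The part of these differences in the Dlx values was not tested.

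Sox9 had 1.59 and 1.67 FPKM in DKO epiblasts, against 0.709, 0.493 and 0.572 FPKM in WT epiblasts (0.73, SE 0.28, limma adjusted p = 0.0755). Twist1 had 0.388 and 0.399 FPKM in DKO epiblasts, against 0, 0 and 0.216 FPKM (0.38, SE 0.21, limma adjusted p = 0.176). Both were short of the threshold. All DKO epiblasts lay above all WT epiblasts in 5 of 10 members, where 31.8% of all genes did so, and below them in 1, Sox10, where 24.2% did. Foxd3 had 1.79 and 2.66 FPKM in DKO epiblasts, against 1.43, 1.38 and 2.29 FPKM, and overlapped. Sox10 (at most 0.0350 FPKM in DKO), Tfap2a, Tfap2b, Ets1 and Prrx1 were under 1 FPKM in all 5 epiblasts.

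The difference between DKO and WT was itself compared between the stages with an interaction contrast. In 3 of 10 genes it was called, higher in heads than in epiblasts for Sox10 (0.85, SE 0.21, limma adjusted p = 0.0222) and Ets1 (1.05, SE 0.31, limma adjusted p = 0.0398), and lower for Sox9 (−1.42, SE 0.42, limma adjusted p = 0.0387). Of all genes 10.9% were called higher and 15.5% lower. Sox10 and Ets1 were under 1 FPKM in every epiblast and pass the filter on low values through head libraries alone, so their p-values are given as a description. Sox10 had a mean log2(FPKM + 1) of 0.18 in WT epiblasts, which is the most that it could fall there. Without 1 library at a time the adjusted p was 0.0281 to 0.0908 for Sox10, 0.0338 to 0.157 for Ets1 and 0.0121 to 0.145 for Sox9, and the calls held in 5, 2 and 2 of 9 such fits. Dlx5, with a difference of −0.08 in heads and 0.94 in epiblasts, had an interaction of −1.02 (SE 0.45, limma adjusted p = 0.120).

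Set side by side, the Kmt2b KO and the Tet1/2 DKO E8.5 heads had different values for the same genes, in tables normalized separately. Sox10 had 0.389 FPKM in Kmt2b KO and 5.68 and 5.59 FPKM in Tet1/2 DKO heads, while the 3 WT values of the 2 tables lay between 2.96 and 3.27 FPKM. Ets1 had 1.59 FPKM in Kmt2b KO and 12.1 and 9.57 FPKM in DKO heads, with WT values between 3.63 and 5.19 FPKM. Tfap2b had 0.200 FPKM in Kmt2b KO and 5.22 and 4.84 FPKM in DKO heads, with WT values between 2.31 and 4.14 FPKM. The difference between the mutants was not tested, since the Kmt2b columns have no replicates.

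CpG methylation was read at the promoters in pooled files of 2 Kmt2b KO E8.5 heads, 2 WT E8.5 heads and 3 Kmt2b KO E6.5 epiblasts, at a mean of 1.97, 2.12 and 1.37 reads per CpG. The 7 windows, extended to 500 bases on each side of the start, had 0% to 5.13% of reads methylated in KO heads and 0% to 6.49% in WT heads. Tfap2b had 2 methylated of 39 reads in KO heads (5.13%, Wilson 95% interval 1.42 to 16.9), against 0 of 15 reads in WT heads (0%, interval 0 to 20.4). Prrx1 had 3 of 113 reads in KO heads (2.65%, interval 0.907 to 7.52), against 5 of 77 reads in WT heads (6.49%, interval 2.81 to 14.3). The upstream start of Tfap2a had 2.63% of 76 reads in KO heads, against 0.893% of 112 reads in WT heads, and its other start 0.524% of 191 reads, against 1.05% of 190 reads.

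The CpG-dense windows were read more deeply. Twist1 had 4 methylated of 474 reads in KO heads (0.844%, interval 0.329 to 2.15), against 4 of 566 reads in WT heads (0.707%, interval 0.275 to 1.80). Foxd3 had 1.67% of 419 reads in KO heads, against 1.78% of 507 reads in WT heads, and Dlx2 0 of 256 reads (0%, interval 0 to 1.48), against 1 of 318 reads (0.314%). In all 7 windows the intervals of KO and WT heads overlapped, and a difference smaller than these intervals was not detectable. At Twist1, Foxd3 and Dlx2 no upper limit was above 3.41% in KO or WT heads. The other windows had fewer reads and wider intervals, with an upper limit of 20.4% at Tfap2b in WT heads. Over 17684 promoters with at least 20 reads in both heads the median was 2.38% in KO and 1.85% in WT heads, 5.71% of them were at least 10 points higher in KO and 4.09% at least 10 points lower, while 0 of the 6 windows with that many reads were. Tfap2b, with 15 reads in WT heads, is the window short of it, and it was 12.5 points higher in KO heads when only CpGs with 3 reads in each file were used. Sox10 and Ets1, whose RNA was lower in KO E8.5 heads like that of Tfap2b, had no window, so methylation at their promoters was not read. In Kmt2b KO epiblasts the 7 windows had 0% to 4.46%, the highest at Twist1 with 14 of 314 reads. Over the whole genome 67.6% of CpG reads in KO heads and 68.2% in WT heads were methylated. Reads carry no molecular identifiers, so these intervals cover counting error only.

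**Figure D4:**
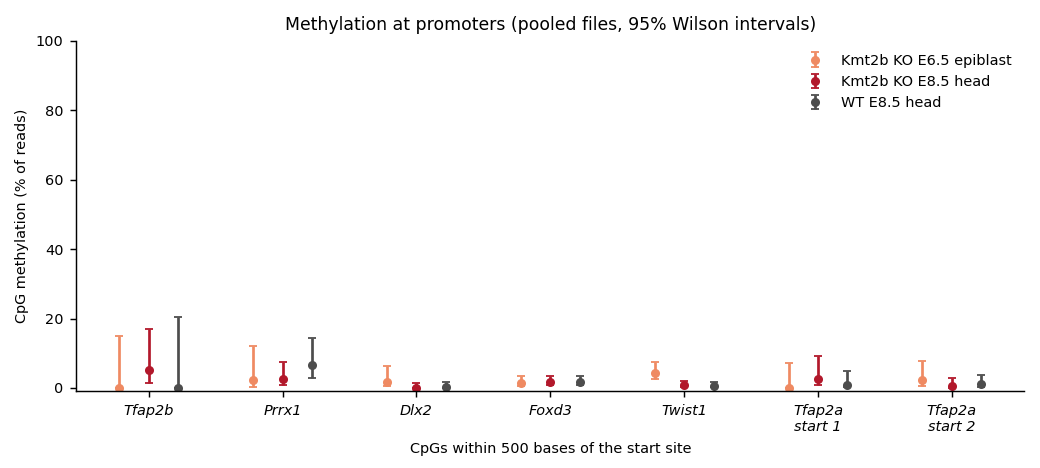
CpG methylation (percent of reads) within 500 bases of the start of 6 genes (Tfap2a with 2 starts) in pooled Kmt2b KO E6.5 epiblasts, Kmt2b KO E8.5 heads and WT E8.5 heads, with Wilson 95% intervals. All points lie at or under 6.49%, and the KO and WT head intervals overlap at every start.

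Genes with a course like those described here were sought over the 15 columns of both tables, among 8692 genes with at least 5 FPKM in any column. These likenesses (Pearson r, as a description) rest on columns that share stages and tables, and the WT epiblasts appear in both tables. Nearest to Sox10 were Wscd1 (r = 0.969) and Otx1 (0.953). Nearest to Tfap2a were Fli1 (0.991), an ETS gene of endothelium, Prrx1 (0.981) and Ednrb (0.978), and nearest to Prrx1 were Tfap2a (0.981), Fli1 (0.980) and Vezf1 (0.974). Sox9 went most closely with Greb1l (0.983), Pax3 (0.982) and Map1b (0.981), and Dlx5 with Greb1l (0.977), Eml1 (0.975) and Sdhc (0.975). For Ets1 they were Lix1 (0.970), Sulf2 (0.962) and Wfikkn1 (0.962), for Tfap2b Ranbp6 (0.983), Pkia (0.980) and Msx3 (0.977), and for Twist1 Arg1 (0.971), Irx2 (0.966) and Cryab (0.962). Dlx2 went with Zcchc11 (0.955), Smo (0.954) and Tle1 (0.946), and Foxd3 with Gdap1l1 (0.931), Agxt2l2 (0.924) and Tnpo1 (0.911).

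Within the 10 genes the closest pairs were Tfap2a with Prrx1 (r = 0.981), Dlx5 with Sox9 (0.971), Sox10 with Ets1 (0.933) and Tfap2b with Ets1 (0.930). Foxd3 ran against the others, with its lowest r to Tfap2b (−0.82).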

How the data were processed

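RNA was measured with Smart-seq2 libraries and CpG methylation with bisulfite libraries, per the labels' protocols. The authors deposited RNA as FPKM, with TopHat2 2.0.11, Cufflinks 2.0.2 and mm9 named in the submitters' processing notes, and methylation as read counts per CpG and strand, pooled by group, with BS-Seeker2 named there. Their columns were read as methylated and then unmethylated counts for either strand, and levels of the strands at the same CpG had r = 0.789 to 0.847. Sorted values of the E6.5 and E8.5 columns are nearly equal within a table, as quantile normalization leaves them. How replicates were merged in the Kmt2b table is not given in the sources used here. Of its deposited columns, 2 match no listed sample and were not used, and 27 rows whose gene names had become dates were dropped. The columns of WT epiblasts in the Tet1/2 table, 3 in number, were assigned to the WT epiblast group by name.

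From these, log2(FPKM + 1) was computed for genes at 1 FPKM or more in at least 2 columns of a fit, without small RNA genes. Libraries of the Tet1/2 set were tested by limma (version 3.58.1, R version 4.3.3; moderated with a trend, two-sided, Benjamini-Hochberg adjusted p over all genes). The head comparison used the 6 libraries other than WT epiblasts, and all others the 9 libraries. The fit was also run on simulated data with independent noise, and its recovery there is not given here. Replicate numbers did not pair samples, with correlations of deviations of 0.0717, 0.199 and 0.0610. The 10 genes and all lists were chosen with earlier results of these data known. Beside the 10 genes, up to 3 genes per list and comparison with the largest difference at 5 FPKM or more in the higher group were named, together with the genes counted in lists of 5 or fewer calls, Pax3 and Snai2. Those counted in lists, Pax3 and Snai2 were named after their values were seen. Some genes that this rule names are not reported here.

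Promoter sequences are RefSeq's in GRCm38.p6. The methylation files use mm9, so no coordinates were converted. A window was located in them by the exact run of distances between its CpGs (at least 6). Of 18541 such windows 18265 were found in exactly 1 place, 18264 of these on the chromosome of the table. Alternatives were pseudocounts of 0.1 and 5, no filter, quantile normalization, other control columns, other fits, a replicate block, each library left out, a window of 1000 bases and at least 3 reads per CpG.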

Additional observations from a re-analysis of the deposited data

Results flagged for a closer look

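The Tet1/2 DKO minus WT difference of 3 of the 10 genes differed between the E8.5 head and the E6.5 epiblast by the interaction contrast of limma. Of all genes 10.9% were called higher and 15.5% lower in this contrast, so the count of 3 of 10 is near the share of all genes. For Sox10 the log2 difference in heads exceeded that in epiblasts by 0.85 (adjusted p = 0.0222), with 0.69 in heads and −0.16 in epiblasts. For Ets1 it was 1.05 (adjusted p = 0.0398), with 1.14 in heads and 0.09 in epiblasts. Both genes pass the filter on low values through head libraries alone and are near the floor in epiblasts, so their p-values are a description. For Sox9 it was −1.42 (adjusted p = 0.0387), with −0.69 in heads and 0.73 in epiblasts. None of these differences was called within heads or within epiblasts alone, and no group was large enough for a search for outlying samples.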

How the results depend on the processing

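The Kmt2b counts depend most on the pseudocount, since most of the 10 genes are at a few FPKM. With 0.1 in place of 1, 2 genes were at least 2-fold higher in KO epiblasts and 1 in KO E8.5 heads, and 2 were at least 2-fold lower in WT E9.5 than in WT E8.5 heads. With 5, 0 genes were at least 2-fold lower in KO at E8.5 and 1 at E9.5, and 2 were at least 2-fold higher in WT E9.5 heads. The counts at E8.5 did not change with quantile normalization, without a filter or with the other WT heads. No alternative without the E9.5 KO sample exists, as it is the only one. In the Tet1/2 epiblast, with a pseudocount of 0.1, 1 gene was called lower. The genes called higher there were 0 with a pseudocount of 5, 1 without a filter, and 0 to 1 with 1 library left out. In the interaction, 1 gene was called higher with a pseudocount of 0.1 and 1 without a filter, and 0 were called lower with a pseudocount of 5 or without a filter. With 1 library left out 0 to 2 genes were called higher and 0 to 2 lower. In WT E8.5 heads against epiblasts 0 to 1 gene was called lower with 1 library left out, Foxd3 without WT head 2, and 8 to 9 were called higher. In the DKO heads 0 genes were called under every alternative run. With the replicate block the adjusted p there was 0.122 for Ets1 and 0.181 for Sox10, and 0.175% of all genes were called higher.

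Uncalled differences changed sign as follows, and the cause was not tested. With a pseudocount of 0.1, Prrx1 in heads was at 0.011 and the interaction of Dlx2 at −1.09. With 1 library left out, the head difference was −0.054 to 0.35 for Tfap2a, −0.56 to 0.33 for Foxd3, −0.19 to 0.034 for Dlx5, −0.35 to 0.25 for Twist1 and −0.26 to 0.26 for Prrx1. The epiblast difference of Ets1 was −0.024 to 0.20. The interaction was −0.33 to 0.072 for Tfap2a, −0.82 to 0.071 for Foxd3 and −0.35 to 0.17 for Prrx1. Where a group was left with 1 library, that library was assumed to vary like the others. Dlx2 fell under the filter in heads without either DKO head. At promoters, 1 window, that of Tfap2b, was 12.5 points higher in KO heads when CpGs needed 3 reads in each file. FPKM give no depth, so counting error in RNA could not be estimated, and a change in the number of crest cells cannot be told apart from one within them.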

Other observations

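Genes of the same lists outside the 10 were called in the Tet1/2 DKO E6.5 epiblast, where 20.1% of all genes were called higher and 15.2% lower. Leaving out libraries was not run for these genes. Of 13 measured genes of crest specification and delamination, 2 were called higher (Id3 and Myb) and 1 lower. The lower one, Snai1, a repressor of epithelial adhesion genes in the streak and the crest, had 5.94 and 7.06 FPKM in DKO epiblasts, against 20.1, 15.6 and 26.6 FPKM in WT epiblasts (log2 difference −1.51, SE 0.23, limma adjusted p = 0.00205). Gsc, a homeobox gene of the anterior streak and later of the arches, had 0.592 and 2.13 FPKM in DKO epiblasts, against 6.20, 2.31 and 9.59 FPKM in WT epiblasts (−1.50, SE 0.47, limma adjusted p = 0.0365). Crabp1, which binds retinoic acid, was the 1 of 8 migratory crest genes called, with 20.2 and 17.2 FPKM in DKO epiblasts, against 9.82, 8.70 and 12.7 FPKM in WT epiblasts (0.80, SE 0.26, limma adjusted p = 0.0440). For Snai1, Gsc and Crabp1 the DKO libraries lay on 1 side of all WT libraries. Dlx3, a homeobox gene of border and surface ectoderm, was the 1 of 9 border genes called higher, with 0.829 and 0.862 FPKM in DKO epiblasts, against 0.142, 0.147 and 0 FPKM in WT epiblasts. Dlx3 was under 1 FPKM in every epiblast and passes the filter on low values through head libraries alone, so its call is a description.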
